A study of Mus musculus with 12 samples.

Results

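The 36 lysosomal genes described here are Gpnmb, Mitf and 34 genes for the membrane proteins, hydrolases and proton pump of the lysosome, taken from a table of 21881 genes by gene symbol. The list was put together around Gpnmb, which was selected on its FPKM in KO_let-7g and KO_siCtrl, where an earlier look at these data had placed it among the largest differences. The values of that contrast are therefore given below as a description, with no p-value, and so is Gpnmb in each comparison, since each uses KO_let-7g or KO_siCtrl libraries. Where members of that contrast are counted past the threshold, the threshold only sorts them. The cells were immortalized fibroblast-like mesenchymal stem cells from the bone marrow of adult C57BL/6 mice, grown as lines from single cells. KO cells had lost both alleles of Dicer1, which encodes the RNase that releases mature microRNAs from their hairpins, and WT cells carried intact floxed alleles. Polyadenylated RNA was sequenced in 4 groups of 3 libraries, each 48 h after transfection at 20 nM. KO_let-7g were Dicer1-null cells given a synthetic duplex of the microRNA let-7g, and KO_siNr6a1 were Dicer1-null cells given an siRNA against the nuclear receptor gene Nr6a1. KO_siCtrl and WT_siCtrl were Dicer1-null and Dicer1-intact cells given a control siRNA with no target. The labels do not say how many lines stood for each genotype, so genotype and line cannot be told apart.

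Lysosomes are acidified by a proton pump in their membrane and break down protein, sugar chains and lipid with soluble hydrolases. Many of these genes carry an E-box in their promoters that is bound by the MiT/TFE transcription factors Mitf, Tfeb and Tfe3, which move into the nucleus when nutrients are short or lysosomes are stressed. Gpnmb is a transmembrane glycoprotein of endosomes and lysosomes that is known from pigment cells, osteoclasts, osteoblasts and lipid-loaded macrophages, and it is a target of Mitf.

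The let-7 microRNAs bind target RNAs through their seed, bases 2 to 8 of the mature strand. The mature let-7g strand is shown with the seed in capitals, since the duplex used in KO_let-7g was made after this microRNA. RefSeq places it at chr9:106178846-106178867 on the plus strand of GRCm38.p6.
mmu-let-7g-5p: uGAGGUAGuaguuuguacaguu

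In the longest annotated 3′ UTR of each gene (GENCODE M21), sites that pair with all or most of this seed were counted. These were CTACCTCA (8mer), CTACCTC or TACCTCA (7mers). The final A of CTACCTCA and TACCTCA pairs with base 1, just outside the seed, and TACCTCA leaves out the base opposite base 8. Of the 36 lysosomal genes, 8 held at least 1 such site (22.2%), against 16.8% of the 10217 tested genes with a 3′ UTR. An 8mer stood in 3 of them (8.33%, against 3.62%), namely Npc2, Gla and Gaa. Gpnmb and Mitf held no site in 3′ UTRs of 1868 and 3174 bases. The 8mer sites are shown with those of Ctsl, Galns and Asah1, which were lower in KO_let-7g than in KO_siCtrl, with the paired bases in capitals and the UTR position of the first paired base. Ctsb and Tpp1 held 7mers too, did not pass the threshold in that contrast and are not shown. Whether these cells use the longest annotated 3′ UTR was not tested. Ctsl is on chromosome 13, Galns and Asah1 on chromosome 8, Npc2 on chromosome 12, Gla on chromosome X and Gaa on chromosome 11.
Npc2, base 1506: gcctcctgcttCTACCTCAagtgctgagat
Gla, base 1588: aatacaagtctCTACCTCAgggggtggggg
Gaa, base 75: agcaaacctgtCTACCTCAttccaaaccct
Ctsl, base 719: gctaataagctTACCTCAaatatttaatt
Ctsl, base 4579: tgaactttctgTACCTCAatgtttataag
Galns, base 389: tctgagccaccCTACCTCtttcgcactgg
Asah1, base 480: cttggctggagTACCTCAgatagacattt

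Promoters in the RefSeq table (250 bases before to 50 bases after the annotated start, GRCm38.p6) were matched for 30 of the 36 genes. The E-box core CACGTG, which reads the same on both strands, stood in 12 of the 30 (40.0%), against 12.2% of 8233 tested genes with a promoter and 8.09% of all 27025 genes with one. The M-box core TCATGTG, searched on both strands, stood in 5 of the 30 (16.7%), against 2.51% of the tested genes and 4.31% of all. The longer palindrome known as the CLEAR element, which contains the E-box core, was searched by exact match to a single sequence only. This exact sequence was found in 0 of the 30, against 0.862% of the tested genes. Variants that differ from it in any base were not counted, so this result does not show that these promoters lack the element. Lamp1 held 4 copies of CACGTG, starting 61, 45, 28 and 15 bases before its start. Mcoln1 held 2, at 71 and 45 bases before, and Atp6v0d1 held 1, at 3 bases before. No match to any of the 3 motifs was found in the promoter windows of Gpnmb or Mitf, which says only that these letters are not in these windows. The promoters of Lamp1, Mcoln1 and Atp6v0d1 are shown, with CACGTG in capitals. These were the counted members that held CACGTG and were higher in KO_siNr6a1 than in KO_siCtrl. Npc2 and Gusb were higher there too, but their promoters held no match and are not shown. The promoter of Gpnmb is shown as well.
Lamp1, chr8:13158911-13159210, plus strand: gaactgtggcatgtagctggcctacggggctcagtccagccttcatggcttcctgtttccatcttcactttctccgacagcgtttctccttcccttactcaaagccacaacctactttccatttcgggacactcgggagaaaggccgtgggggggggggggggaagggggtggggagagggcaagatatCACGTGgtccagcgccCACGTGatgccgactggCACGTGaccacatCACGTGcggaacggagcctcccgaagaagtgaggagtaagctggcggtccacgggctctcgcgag
Mcoln1, chr8:3500269-3500568, plus strand: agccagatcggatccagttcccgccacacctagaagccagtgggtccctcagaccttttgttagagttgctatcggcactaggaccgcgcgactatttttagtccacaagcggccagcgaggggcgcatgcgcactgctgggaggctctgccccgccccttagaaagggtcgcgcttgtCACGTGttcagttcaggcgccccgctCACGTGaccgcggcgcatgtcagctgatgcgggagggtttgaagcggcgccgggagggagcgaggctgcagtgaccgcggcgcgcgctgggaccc
Atp6v0d1, chr8:105566015-105566314, minus strand: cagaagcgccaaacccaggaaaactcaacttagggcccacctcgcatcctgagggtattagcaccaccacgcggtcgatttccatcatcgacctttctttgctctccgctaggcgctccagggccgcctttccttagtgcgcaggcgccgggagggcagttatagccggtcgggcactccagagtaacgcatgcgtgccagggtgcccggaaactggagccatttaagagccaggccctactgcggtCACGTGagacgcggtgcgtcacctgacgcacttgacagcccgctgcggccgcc
Gpnmb, chr6:49036268-49036567, plus strand: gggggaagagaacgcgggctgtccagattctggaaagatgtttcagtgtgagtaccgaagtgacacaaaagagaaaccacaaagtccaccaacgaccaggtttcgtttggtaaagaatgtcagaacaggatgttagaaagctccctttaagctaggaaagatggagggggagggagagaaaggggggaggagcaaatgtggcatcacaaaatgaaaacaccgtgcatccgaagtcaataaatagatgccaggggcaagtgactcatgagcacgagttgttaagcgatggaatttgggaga

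**Figure D1:**
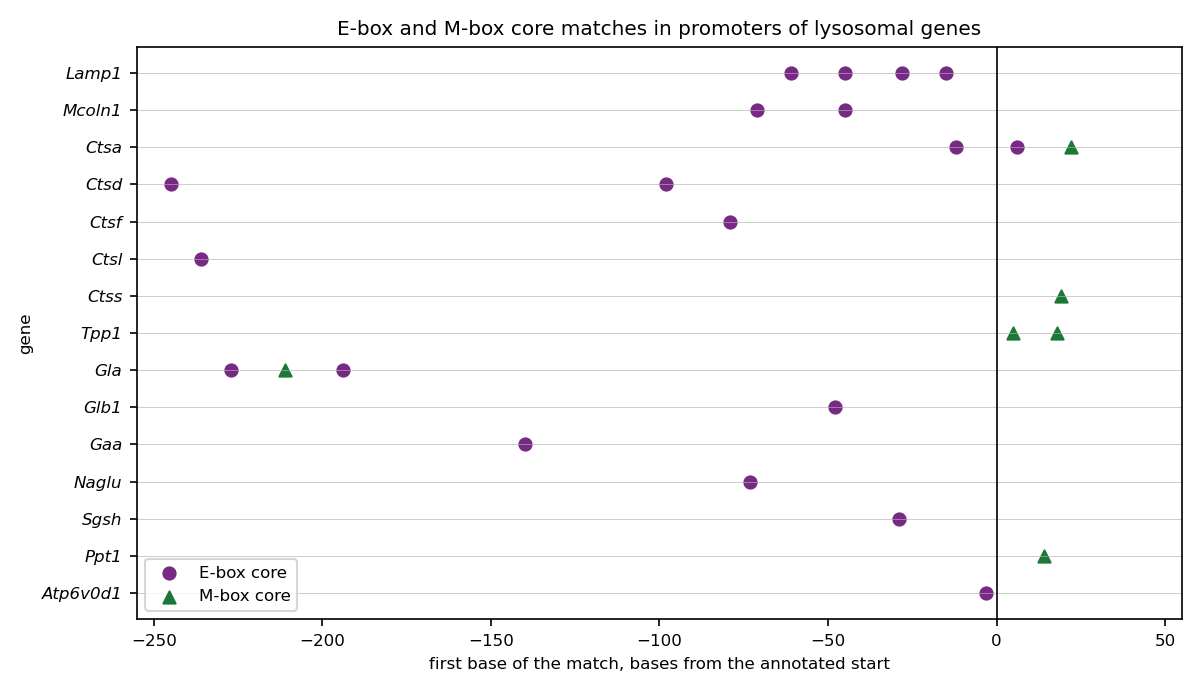
Matches to the E-box core (circles) and the M-box core (triangles) in the promoters of the 15 lysosomal genes that held at least 1. The horizontal axis gives the first base of the match in bases from the annotated start (vertical line), and Lamp1 shows 4 E-box matches between 61 and 15 bases before it.

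Values are FPKM, in which fragments are divided by transcript length and by the mapped fragments of the library, so levels are per length and can be compared between genes. The number of reads is not known, but relative depth, set to 1 for the shallowest library, was 1.34 to 1.82 in KO_let-7g, 1.13 to 1.57 in KO_siNr6a1, 1 to 1.31 in KO_siCtrl and 1.11 to 1.29 in WT_siCtrl. Nr6a1 averaged 4.22 FPKM in KO_let-7g, 3.68 in KO_siNr6a1, 11.7 in KO_siCtrl and 1.12 in WT_siCtrl. Dicer1, measured over its whole length, averaged 2.7, 3.15, 3.86 and 6.58 FPKM in these same 4 groups. Each comparison of Nr6a1 and of Dicer1 with KO_siCtrl gave p = 0.1 in a two-sided exact permutation test, the smallest that 3 against 3 libraries allow. Of 12 markers of mesenchymal stem cells, 11 averaged at least 1 FPKM in each group, and Thy1 averaged at most 0.00181 FPKM. Fold changes are differences of log2(FPKM + 1), a scale that shrinks the change of low genes, and a gene was called higher or lower at a Benjamini-Hochberg adjusted p under 0.05 over the 11801 genes with at least 1 FPKM in at least 3 libraries. Nothing in the labels tells whether the 3 libraries of a group were grown as separate cultures. The p-values thus reflect the spread between these libraries only, and that spread may be technical.

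The lysosomal genes were mostly well expressed. Averaged over the 12 libraries, 10 stood at 100 FPKM or more, 18 between 10 and 100, 6 between 1 and 10 and 2 below 1. Lamp1, the main structural protein of the lysosomal membrane, averaged 615 FPKM, and Psap, the precursor of the saposins that help hydrolases to reach lipids, averaged 482. Cd63, a tetraspanin of late endosomes and lysosomes, averaged 449 FPKM. At the low end stood Ctss, a cysteine protease of antigen-presenting cells, which averaged 0.147 FPKM and at most 0.36 in any library. Ctss was the only member that did not pass the filter, so 35 members passed. Ctsf and Ctsk passed through their level in WT_siCtrl alone, so they could only be lower elsewhere and are described with no test. Together with Gpnmb they are left out of the counts of called members, which cover the 32 others. The summed FPKM of the 36 genes was 3406 to 3654 in KO_let-7g, 3465 to 4242 in KO_siNr6a1, 3449 to 3612 in KO_siCtrl and 3579 to 4167 in WT_siCtrl, or 0.615% to 0.76% of the sum over all genes.

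The lysosomal genes moved together from library to library most clearly within 2 of the groups. KO_siNr6a1 replicate 1 was the highest of its group for 27 of the 35 members past the filter (77.1%), against 39.1% of all tested genes, and the median member stood 0.13 above its group mean on the log2 scale there. KO_siNr6a1 replicate 0 was the lowest of its group for 24 of 35 (68.6%), against 43.8% of all tested genes. WT_siCtrl replicate 0 was the lowest of its group for 26 of 35 (74.3%), against 45.9% of all tested genes, and WT_siCtrl replicate 2 was the highest for 23 of 35 (65.7%), against 40.6%. In KO_let-7g and KO_siCtrl no library was the highest of its group for more than 16 of the 35 or the lowest for more than 17. The members differed from the table there too, by less. KO_siCtrl replicate 1 was the highest for 45.7%, against 33.0% of all tested genes. KO_siCtrl replicate 2 was the lowest for 48.6%, against 37.7%, and KO_let-7g replicate 0 for 45.7%, against 32.6%. The counts that follow are therefore also given without each of these 4 libraries of KO_siNr6a1 and WT_siCtrl.

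**Figure D2:**
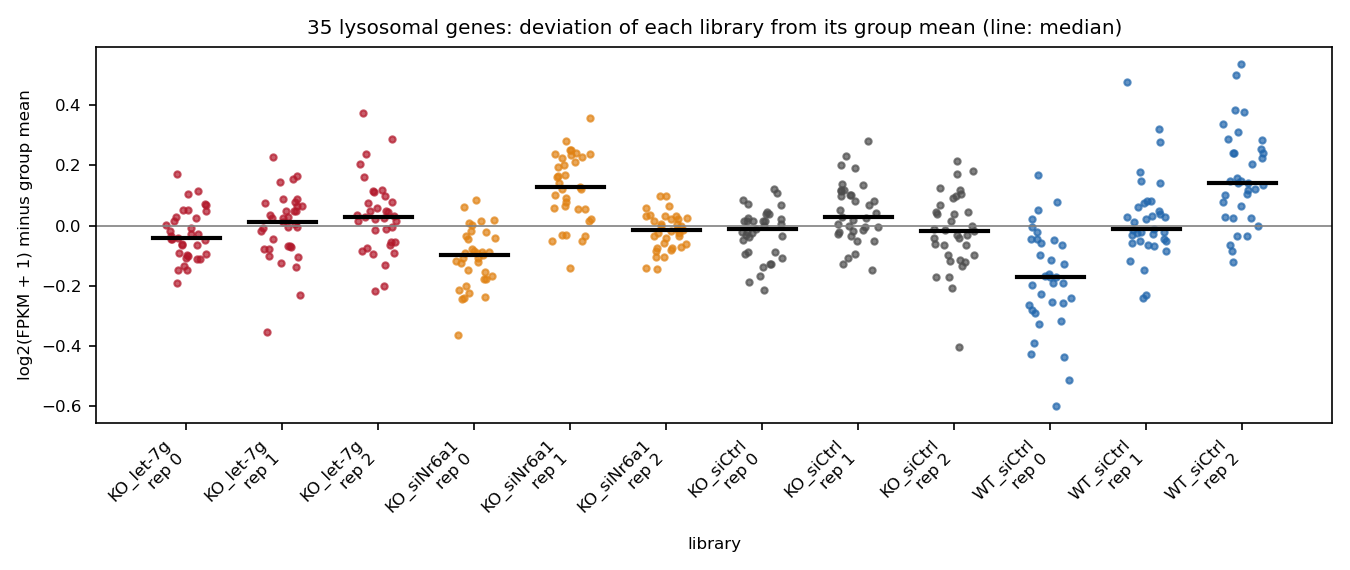
Deviation of each of the 35 lysosomal genes past the filter from its group mean in every library, in log2(FPKM + 1), with a bar at the median. The medians lie between -0.04 and 0.03 in KO_let-7g and between -0.02 and 0.03 in KO_siCtrl, but reach 0.13 in KO_siNr6a1 replicate 1, -0.17 in WT_siCtrl replicate 0 and 0.14 in WT_siCtrl replicate 2.

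The group means of Gpnmb ran between 2.1 and 29.4 FPKM. The gene stood at 26.0, 24.5 and 37.7 FPKM in KO_let-7g, at 3.72, 3.7 and 4.21 in KO_siNr6a1, at 2.13, 1.87 and 2.3 in KO_siCtrl and at 5.28, 7.8 and 12 in WT_siCtrl. No 2 of these groups overlapped, and the order of the groups from high to low was KO_let-7g, WT_siCtrl, KO_siNr6a1 and KO_siCtrl. The KO_let-7g mean was 14 times that of KO_siCtrl (log2 fold change 3.27, SE 0.23) and 7.58 times that of KO_siNr6a1 (2.62, SE 0.23), and the KO_siNr6a1 mean was 1.84 times that of KO_siCtrl (0.65, SE 0.23). The KO_siCtrl mean was 0.252 times that of WT_siCtrl (-1.53, SE 0.23). All 4 differences are a description, since the KO_let-7g and KO_siCtrl values chose the gene. Bulk RNA does not show whether a change lies in the level per cell or in the number of cells that express a gene, so these cannot be told apart here or below.

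Mitf, the pigment cell and osteoclast transcription factor known to drive Gpnmb, stood at 3.98, 4.13 and 4.37 FPKM in KO_let-7g, at 1.93, 1.5 and 1.87 in KO_siNr6a1, at 2.01, 2.09 and 2.17 in KO_siCtrl and at 1.69, 1.48 and 1.5 in WT_siCtrl. All 3 KO_let-7g libraries stood above all 9 others, while KO_siNr6a1 and WT_siCtrl overlapped. The KO_let-7g mean was 1.99 times that of KO_siCtrl (log2 fold change 0.74, SE 0.089, a description). It was higher in KO_let-7g than in KO_siNr6a1 (0.90, SE 0.089, adjusted p = 3.9e-05). It was not called between KO_siNr6a1 and KO_siCtrl (-0.16, SE 0.089, adjusted p = 0.201). It was called higher in KO_siCtrl than in WT_siCtrl (0.27, SE 0.089, adjusted p = 0.0222), a call lost in 5 of 15 alternative settings. So across the 4 groups Gpnmb and Mitf did not share an order, since Gpnmb was lower and Mitf higher in KO_siCtrl than in WT_siCtrl.

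The other MiT/TFE factors were more abundant than Mitf. Tfe3, listed as Tcfe3, stood at 27.4, 30.8 and 29.0 FPKM in KO_let-7g, at 23.4, 27.3 and 22.7 in KO_siNr6a1, at 14.2, 15.5 and 14.6 in KO_siCtrl and at 18.4, 25.9 and 23.8 in WT_siCtrl. The KO_siCtrl libraries lay below those of each other group. Tfe3 was higher in KO_siNr6a1 than in KO_siCtrl (log2 fold change 0.69, SE 0.12, adjusted p = 0.00164) and lower in KO_siCtrl than in WT_siCtrl (-0.57, SE 0.12, adjusted p = 0.00179). Tfeb, listed as Tcfeb, averaged 18.1 ± 3.0 FPKM in KO_let-7g, 21.8 ± 4.67 in KO_siNr6a1, 14.2 ± 1.6 in KO_siCtrl and 9.74 ± 2.46 in WT_siCtrl (SD, n = 3 each). It was called higher in KO_siNr6a1 than in KO_siCtrl (0.57, SE 0.2, adjusted p = 0.0487) and in KO_siCtrl than in WT_siCtrl (0.52, SE 0.2, adjusted p = 0.0422). Both Tfeb calls lie near the threshold, and neither Tfeb nor Tfe3 was followed through the alternative settings. In KO_siNr6a1 Tfeb stood at 16.9, 26.1 and 22.5 FPKM in replicates 0, 1 and 2, lowest and highest in the same libraries as most members. The differences between KO_let-7g and KO_siCtrl, a description, were 0.93 for Tfe3 and 0.32 for Tfeb. The fourth factor, Tfec (Tcfec), was listed at 0 in every library.

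**Figure D3:**
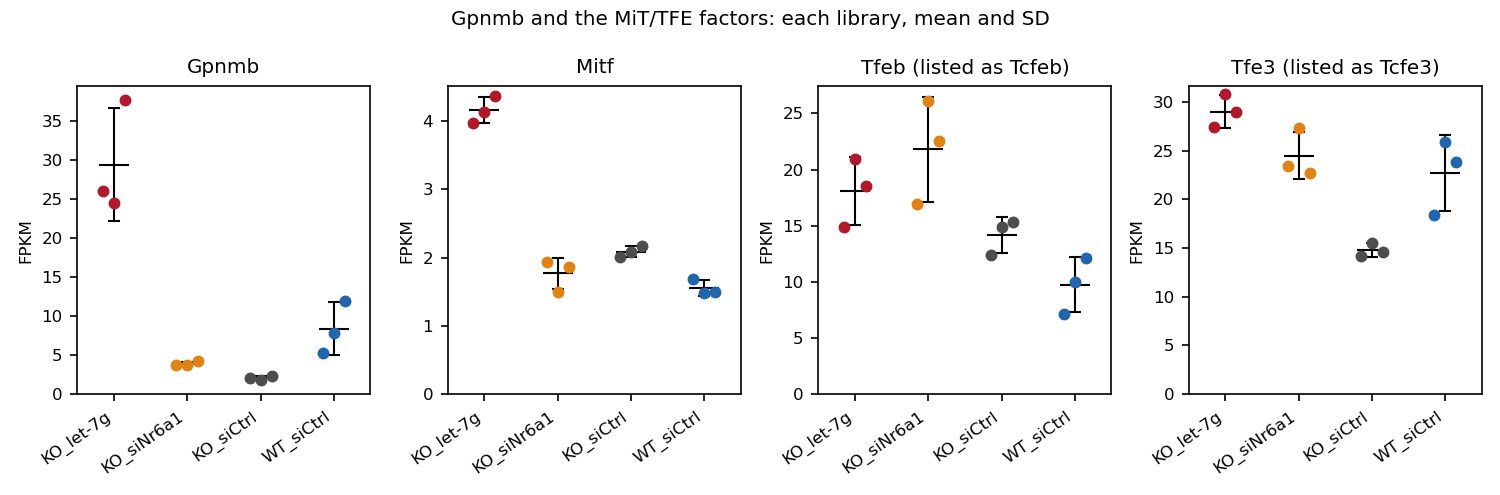
FPKM of Gpnmb, Mitf, Tfeb and Tfe3 in every library (points), with the mean and SD of each group of 3 (horizontal line and bar). Gpnmb stood between 24.5 and 37.7 FPKM in KO_let-7g and at 12 or less in every other library, and Mitf between 3.98 and 4.37 in KO_let-7g and at 2.17 or less elsewhere.

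Gpnmb and the cathepsins are also abundant in macrophages, osteoclasts and pigment cells, so markers of these cells were read beside them. The 16 markers of macrophages and blood summed to 19.3 to 27.3 FPKM in KO_let-7g, 9.62 to 11.5 in KO_siNr6a1, 12.8 to 16.2 in KO_siCtrl and 8.63 to 11.2 in WT_siCtrl. In each group 2 of the 16 averaged at least 1 FPKM, namely Cd14, a receptor for bacterial lipid, and Cd68, itself a lysosomal membrane glycoprotein. Cd68 averaged 5.81 FPKM in KO_let-7g, 1.71 in KO_siNr6a1, 1.84 in KO_siCtrl and 1.39 in WT_siCtrl. Fcgr3, an antibody receptor, averaged 0.789 FPKM in KO_let-7g, 0.401 in KO_siNr6a1, 0.269 in KO_siCtrl and 0.195 in WT_siCtrl, and Csf1r, the receptor for macrophage growth factor, averaged 0.0654, 0.0811, 0.494 and 0.111 FPKM in these same groups. Ptprc (CD45) reached at most 0.0177 FPKM in any library, Itgam at most 0.0125 and C1qa was at 0 throughout. The 7 pigment cell markers in the table summed to at most 0.999 FPKM in any library, with Tyr at no more than 0.0275 and Dct at no more than 0.00133. The 12 osteoclast genes summed to 108 to 113 FPKM in KO_let-7g, 114 to 135 in KO_siNr6a1, 125 to 136 in KO_siCtrl and 139 to 187 in WT_siCtrl, and 4 or 5 of them averaged at least 1 FPKM in each group. These sums came mostly from Tcirg1, Clcn7 and Ostm1, which also serve lysosomes in other cells, and from the transcription factor Nfatc1. Mmp9 averaged 0.694 FPKM in KO_let-7g, 2.47 in KO_siNr6a1, 2.33 in KO_siCtrl and 0.427 in WT_siCtrl. Acp5 reached at most 0.0833 FPKM in any library, Calcr 0.131 and Atp6v0d2 0.0541. The part that Cd14, Cd68 and Fcgr3, which were highest in KO_let-7g as Gpnmb was, play in the Gpnmb values was not tested.

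Loss of Dicer1, compared in cells given the control siRNA, went with changes in both directions. Of the 32 counted members, 9 were higher and 10 lower in KO_siCtrl than in WT_siCtrl and 13 were not called. Over all tested genes 54.3% were called in this comparison, 29.1% higher and 25.2% lower, so the share called among the members (59.4%, with 28.1% higher and 31.2% lower) was not far from that of the table. The median member differed by 0.10 and the median gene by 0.04 on the log2 scale. Without WT_siCtrl replicate 0 the counts were 6 higher and 10 lower, as Ctsz, Gla and Ppt1 were no longer called (adjusted p of 0.0525 to 0.0614), and without WT_siCtrl replicate 2 they were 9 and 10. Kept as a block, the replicate number added Asah1 (adjusted p = 0.00231) and Manba (adjusted p = 0.0491) to the higher members.

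The largest differences lay among the cathepsins, the main lysosomal proteases, where 3 of the 7 counted proteases were higher and 1 lower in KO_siCtrl. Ctsh, a cysteine protease that trims amino ends, stood at 0.687, 0.72 and 0.424 FPKM in KO_siCtrl, against 9.75, 16.6 and 15 in WT_siCtrl (log2 fold change -3.17, SE 0.17, adjusted p = 8.2e-08). It was low in all KO libraries, with 1.41 FPKM as the highest value in KO_let-7g or KO_siNr6a1. Ctsl, a broad cysteine endopeptidase, went the other way, at 503, 479 and 555 FPKM in KO_siCtrl and 183, 181 and 187 in WT_siCtrl (1.47, SE 0.11, adjusted p = 1.24e-06). Ctsa, the serine carboxypeptidase that protects Glb1 and Neu1, was higher in KO_siCtrl (88.6 ± 7.29 against 59.1 ± 10.4 FPKM, SD, n = 3 each, log2 fold change 0.59, adjusted p = 0.00472), and so was the carboxypeptidase Ctsz (280 ± 32.2 against 205 ± 34.9 FPKM, 0.46, adjusted p = 0.0147). KO_siCtrl and WT_siCtrl did not overlap for these 4 genes, nor for 57.2% of all tested genes. Ctsb, Ctsd and Tpp1 were not called, with differences of 0.00 to 0.20. Ctsf, another cysteine protease, stood at 0.0786, 0.00802 and 0 FPKM in KO_siCtrl, against 1.59, 4.45 and 3.26 in WT_siCtrl. Ctsk, the collagen-degrading cathepsin of osteoclasts, stood at 0.392, 0.799 and 0.431 FPKM in KO_siCtrl, against 3.1, 4.88 and 3.32 in WT_siCtrl. Both are a description, since the filter fixed their direction.

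Among the membrane proteins, Cd63 stood at 367, 362 and 361 FPKM in KO_siCtrl and at 680, 672 and 752 in WT_siCtrl (log2 fold change -0.94, SE 0.11, adjusted p = 2.54e-05). Lamp2, which takes part in chaperone-mediated autophagy, stood at 131, 146 and 90.6 FPKM in KO_siCtrl and at 222, 229 and 207 in WT_siCtrl (-0.86, SE 0.16, adjusted p = 0.000715). Npc1, the membrane protein that passes cholesterol out of the lysosome, was higher, at 28.3, 27.1 and 26.8 FPKM in KO_siCtrl and 18.2, 13.6 and 16.9 in WT_siCtrl (0.73, SE 0.097, adjusted p = 7.83e-05). The groups did not overlap for these 3, as for 57.2% of all tested genes. Lamp1, the cholesterol carrier Npc2 and the calcium channel Mcoln1 were not called, with differences of -0.06 to 0.13.

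Of the 15 hydrolases and helper proteins for sugars and lipids, 3 were higher and 5 lower in KO_siCtrl. Psap stood at 341, 355 and 337 FPKM in KO_siCtrl and at 577, 658 and 709 in WT_siCtrl, with no overlap (log2 fold change -0.91, SE 0.1, adjusted p = 2.31e-05). Hexa, the alpha subunit of the hexosaminidase that degrades gangliosides, averaged 44.6 ± 1.49 FPKM in KO_siCtrl and 85.7 ± 8.36 in WT_siCtrl (SD, n = 3 each, -0.92, adjusted p = 6.06e-05). Fuca1 (fucosidase), Glb1 (beta-galactosidase) and Gusb (beta-glucuronidase) were lower by smaller steps, at log2 fold changes of -0.77, -0.49 and -0.32. The lysosomal alpha-mannosidase Man2b1 (0.47), the alpha-galactosidase Gla (0.40) and the thioesterase Ppt1 (0.28) were higher. The 7 others differed by 0.02 to 0.32 and were not called, though with the block Asah1 (0.32) and Manba (0.26) were.

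The 3 proton pump genes split. Atp6ap1, an accessory subunit, stood at 84.6, 94.8 and 79.2 FPKM in KO_siCtrl and at 150, 156 and 166 in WT_siCtrl (log2 fold change -0.86, SE 0.091, adjusted p = 1.53e-05). Atp6v0d1, a subunit of the membrane sector, was lower too (63.0 ± 5.41 against 104 ± 16.5 FPKM, SD, n = 3 each, -0.70, adjusted p = 0.000769). Atp6v1h, the regulatory subunit of the outer sector, was higher (79.7 ± 3.07 against 61.4 ± 2.23 FPKM, 0.37, adjusted p = 0.00054). KO_siCtrl and WT_siCtrl did not overlap for any of the 3, against 57.2% of all tested genes without overlap.

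The comparison of KO_siNr6a1 with KO_siCtrl asks what lowering Nr6a1 did to these genes in Dicer1-null cells. Of the 32 counted members, 5 were higher and 3 lower in KO_siNr6a1, and 24 were not called. Of these members 25.0% were called, with 15.6% higher and 9.38% lower, against 29.4% of all tested genes, 13.2% higher and 16.3% lower. The median member differed by 0.03 and the median gene by -0.06. Kept as a block, the replicate number raised the count of higher members to 9, adding Lamp2 (adjusted p = 0.00689), Ctsd (0.0195), Ctsa (0.0208) and Hexa (0.0472), and that of lower members to 4, adding Ctsz (0.032). Without KO_siNr6a1 replicate 1, the library in which the members stood high, 4 were higher and 3 lower, and without replicate 0, in which they stood low, 6 and 3. With median of ratios scaling 10 were higher and 3 lower, and the share of higher genes among all those called was 56.3%, against 44.8% with the values as deposited.

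Among the membrane proteins and their partner Npc2, 3 of 6 were higher in KO_siNr6a1. Npc2, the soluble carrier that hands cholesterol to Npc1, stood at 83.7, 107 and 84.6 FPKM in KO_siNr6a1 and at 57.9, 53.7 and 52.2 in KO_siCtrl (log2 fold change 0.73, SE 0.13, adjusted p = 0.0019). Lamp1 stood at 704, 860 and 746 FPKM in KO_siNr6a1 and at 562, 609 and 520 in KO_siCtrl (0.45, SE 0.097, adjusted p = 0.00569). Mcoln1, the lysosomal calcium channel, stood at 39.0, 54.4 and 46.8 FPKM in KO_siNr6a1 and at 29.6, 38.8 and 33.9 in KO_siCtrl (0.44, SE 0.14, adjusted p = 0.0366). The groups did not overlap for these 3, as for 46.1% of all tested genes, but the call of Mcoln1 was lost in 6 of 16 alternative settings, and without KO_siNr6a1 replicate 1 its difference was 0.32 (adjusted p = 0.136). Atp6v0d1 stood at 92.3, 123 and 98.6 FPKM in KO_siNr6a1 and at 58.8, 69.1 and 61.0 in KO_siCtrl, with no overlap (0.71, SE 0.13, adjusted p = 0.00205). Gusb was higher as well, at 57.8 ± 1.32 FPKM in KO_siNr6a1 and 45 ± 4.33 in KO_siCtrl (SD, n = 3 each, 0.36, adjusted p = 0.0056).

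The lower members came from different classes. Ctsl stood at 349, 383 and 374 FPKM in KO_siNr6a1 and at 503, 479 and 555 in KO_siCtrl (log2 fold change -0.47, SE 0.11, adjusted p = 0.00956). Manba, the beta-mannosidase, stood at 11.4, 11.3 and 10.9 FPKM in KO_siNr6a1 and at 17.1, 17.0 and 13.6 in KO_siCtrl (-0.46, SE 0.11, adjusted p = 0.0118). Atp6v1h stood at 58.0, 64.7 and 62.7 FPKM in KO_siNr6a1 and at 81.8, 81.2 and 76.2 in KO_siCtrl (-0.36, SE 0.064, adjusted p = 0.00192). KO_siNr6a1 and KO_siCtrl did not overlap for these 3 (46.1% of all tested genes), and within the proton pump Atp6v0d1 and Atp6v1h were called in opposite directions. Of the 11 counted members with CACGTG in the promoter 3 were higher and 1 lower here (Lamp1, Mcoln1 and Atp6v0d1 against Ctsl), and of the 15 whose promoter lacked it 2 were higher and 1 lower.

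**Figure D4:**
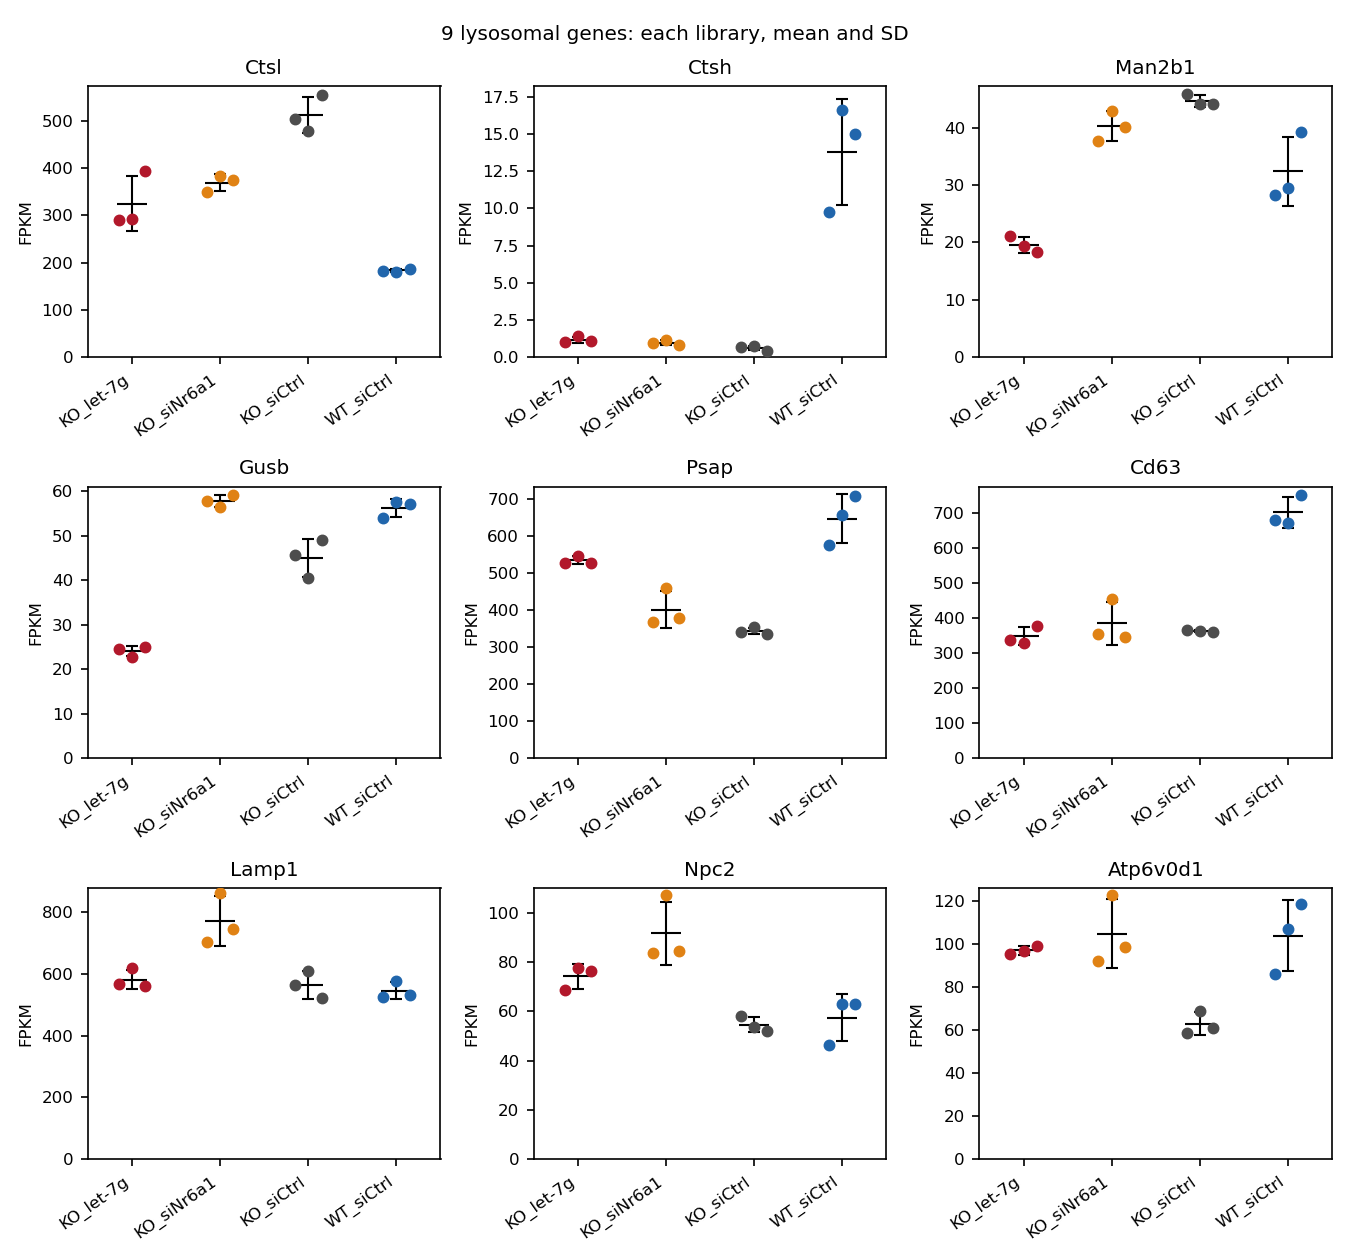
FPKM of 9 lysosomal genes in every library (points), with the mean and SD of each group of 3 (horizontal line and bar). Ctsh stands at 1.41 FPKM or less in all KO libraries, Man2b1 and Gusb lie lowest in KO_let-7g, and Lamp1 and Npc2 lie highest in KO_siNr6a1.

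Between KO_let-7g and KO_siCtrl, the contrast from which Gpnmb was taken, 7 of the 32 counted members passed the threshold higher and 8 lower, and 17 did not pass. Over all tested genes 45.6% passed, 27.5% higher and 18.2% lower. These values are a description. Since the list was built around Gpnmb from this contrast, the threshold only sorts the members here and is no evidence about them. With quantile scaling 7 members passed higher and 10 lower, with median of ratios scaling 6 and 11, and the share of higher genes among all those called was 49.9% and 49.3%, against 60.2% with the values as deposited. Beside Gpnmb and Mitf, the largest positive differences were those of Gaa, the acid glucosidase that degrades glycogen, at 106, 114 and 124 FPKM in KO_let-7g and 64.0, 71.7 and 81.1 in KO_siCtrl (log2 fold change 0.66, SE 0.18), and of Psap, at 528, 548 and 529 FPKM in KO_let-7g and 341, 355 and 337 in KO_siCtrl (0.64, SE 0.1). Atp6v0d1 (0.62), Hexa (0.56), Npc2 (0.43) and Mcoln1 (0.42) followed. The largest negative difference was that of Man2b1, at 21.1, 19.3 and 18.4 FPKM in KO_let-7g and 45.9, 44.1 and 44.1 in KO_siCtrl (-1.15, SE 0.11). Gusb stood at 24.6, 22.8 and 24.9 FPKM in KO_let-7g and at 45.6, 40.4 and 49.0 in KO_siCtrl (-0.87, SE 0.077). Ctsl (-0.67), Glb1 (-0.58), Galns (-0.56), a sulfatase of keratan sulfate, Asah1 (-0.52), the acid ceramidase, Ctsa (-0.39) and Atp6v1h (-0.22) completed the 8. KO_let-7g and KO_siCtrl did not overlap for any of these 15 genes, nor for 55.4% of all tested genes.

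Members with a let-7 site stood on both sides of this contrast. Of the 8 members with a site, 2 stood past the threshold higher (Npc2 and Gaa, both with an 8mer) and 3 lower (Ctsl, Galns and Asah1) in KO_let-7g. Of the 24 counted members with no site, 5 stood higher and 5 lower. Man2b1, Gusb, Glb1 and Ctsa, which were lower in KO_let-7g, held no site in the 3′ UTRs examined.

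The direct comparison of KO_let-7g with KO_siNr6a1 tests where the responses to the 2 treatments differed. Of the 32 counted members, 5 were higher and 7 lower in KO_let-7g. Among these members 37.5% were called, 15.6% higher and 21.9% lower, against 40.9% of all tested genes, 27.6% higher and 13.3% lower. The median gene stood 0.12 higher in KO_let-7g, a shift that median of ratios scaling took to -0.01, while the median member stood at -0.06, so differences near 0.12 are no larger than that of the typical gene. With quantile scaling 3 members were higher and 11 lower, with median of ratios scaling 3 and 14, and the share of higher genes among all those called was 51.9% and 45.1%, against 67.6% with the values as deposited. Mitf, given above, was 1 of the 5 higher.

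The members that were lower in KO_let-7g were mostly hydrolases. Gusb stood at 24.6, 22.8 and 24.9 FPKM in KO_let-7g, against 57.8, 56.4 and 59.1 in KO_siNr6a1 (log2 fold change -1.23, SE 0.077, adjusted p = 4.37e-06), and so lay on opposite sides of its KO_siCtrl level under the 2 treatments. Man2b1 stood at 21.1, 19.3 and 18.4 FPKM in KO_let-7g, against 37.7, 42.9 and 40.2 in KO_siNr6a1 (-1.0, SE 0.11, adjusted p = 7.79e-05). Ctsa stood at 62.3, 68.1 and 70.7 FPKM in KO_let-7g, against 92.9, 131 and 109 in KO_siNr6a1 (-0.70, SE 0.14, adjusted p = 0.00261). These 3 did not overlap between the groups, as for 55.4% of all tested genes. Glb1 (-0.52, adjusted p = 0.00356), Asah1 (-0.50, adjusted p = 0.0105), Galns (-0.42, adjusted p = 0.022) and Lamp1 (-0.40, adjusted p = 0.007) were lower too. The call of Galns was lost without KO_let-7g replicate 1, KO_siNr6a1 replicate 1 or KO_siNr6a1 replicate 2 (adjusted p of up to 0.0758).

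Gaa stood at 106, 114 and 124 FPKM in KO_let-7g and at 61.7, 85.0 and 74.9 in KO_siNr6a1 (log2 fold change 0.64, SE 0.18, adjusted p = 0.0146), and Psap at 528, 548 and 529 FPKM in KO_let-7g and at 367, 461 and 378 in KO_siNr6a1 (0.42, SE 0.1, adjusted p = 0.00698). KO_let-7g and KO_siNr6a1 did not overlap for either gene (55.4% of all tested genes), but the call of Gaa was lost without KO_let-7g replicate 2 or KO_siNr6a1 replicate 0 (adjusted p of up to 0.0586). The smaller differences of Atp6ap1 (0.28, adjusted p = 0.0288) and Ppt1 (0.23, adjusted p = 0.0484) were lost in 6 and in 10 of 16 alternative settings. Kept as a block, the replicate number also brought Hexa (0.31, adjusted p = 0.0195), Gla (-0.32, 0.0241), Npc1 (-0.23, 0.0235) and Npc2 (-0.29, 0.0442) past the threshold. Without KO_siNr6a1 replicate 1 the counts were 5 higher and 6 lower, and without KO_siNr6a1 replicate 0 they were 2 higher and 8 lower. The count of higher members was 3 without KO_let-7g replicate 1, without KO_let-7g replicate 2 and without KO_siNr6a1 replicate 2.

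Set side by side, the values against KO_siCtrl, whose libraries both contrasts share, were 0.62 in KO_let-7g and 0.71 in KO_siNr6a1 for Atp6v0d1, 0.42 and 0.44 for Mcoln1, and 0.43 and 0.73 for Npc2. The differences between the treatments for these 3 were -0.09, -0.02 and -0.29, and none was called in the reported fit. Npc2 was called lower in KO_let-7g than in KO_siNr6a1 with the block and with quantile scaling. It was also called so with median of ratios scaling (-0.45, adjusted p = 0.0122) and library weights (-0.24, adjusted p = 0.0303). For Ctsl the values were -0.67 in KO_let-7g and -0.47 in KO_siNr6a1, and for Atp6v1h -0.22 in KO_let-7g and -0.36 in KO_siNr6a1. Gusb (-0.87 in KO_let-7g and 0.36 in KO_siNr6a1) was the 1 member past the threshold in opposite directions.

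**Figure D5:**
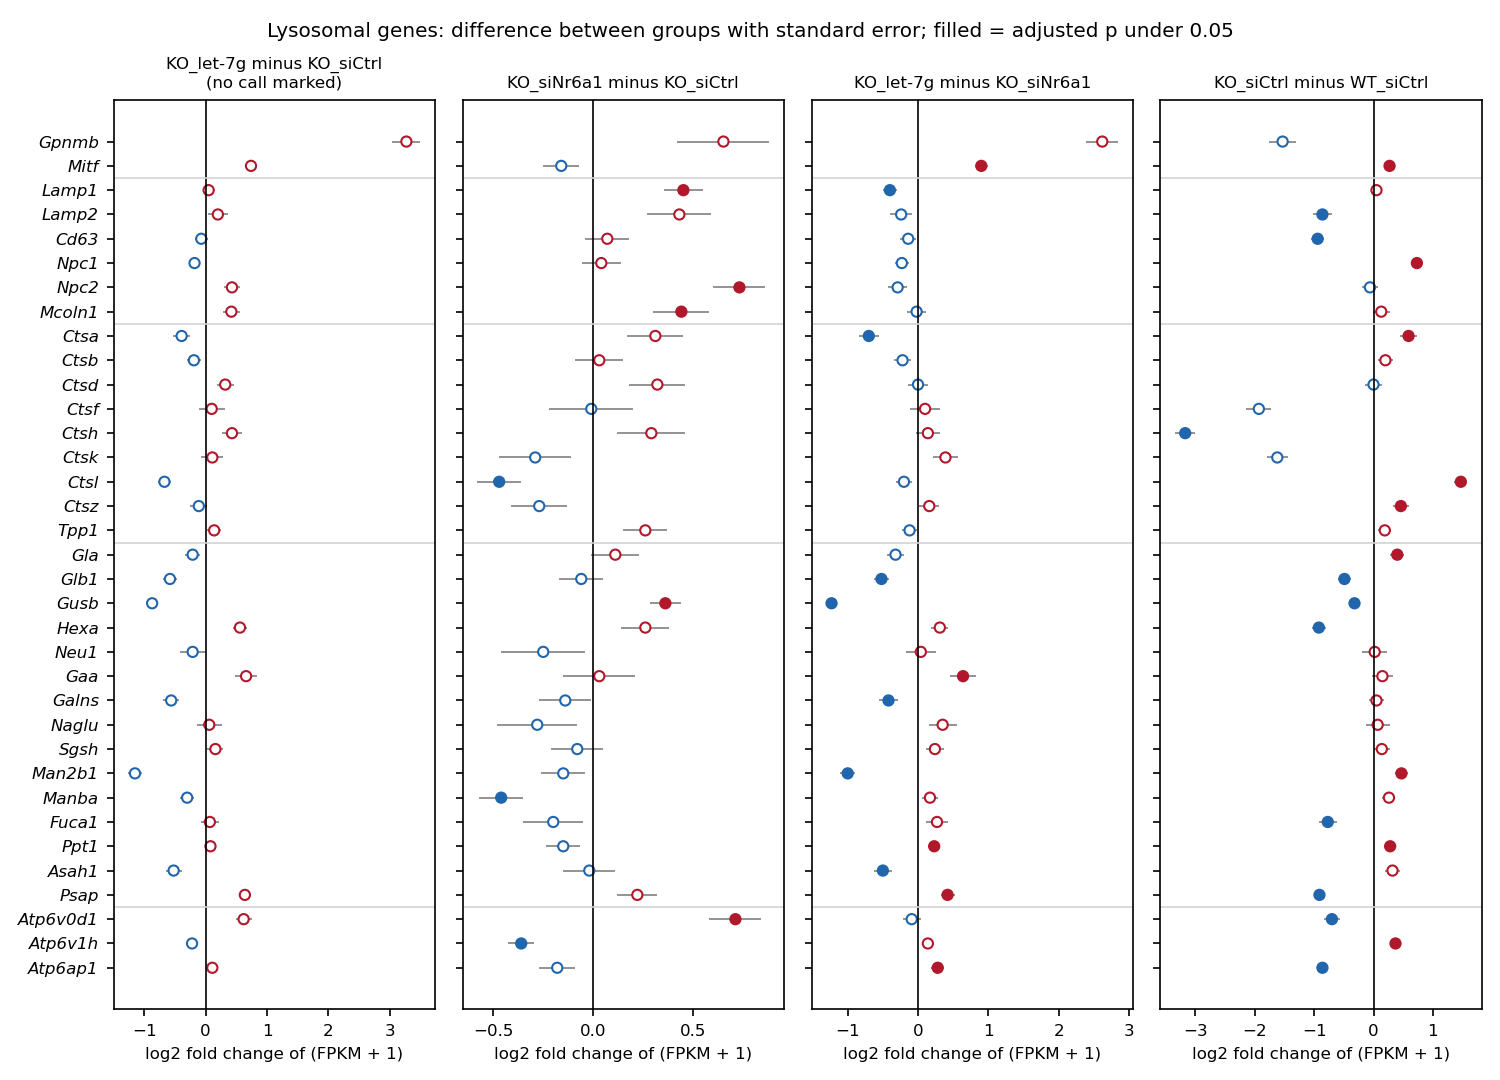
Difference between groups in log2(FPKM + 1) for the 35 lysosomal genes past the filter, ordered by role, with the standard error as a bar. Each panel has its own axis, filled points had an adjusted p under 0.05, and no call is marked for KO_let-7g minus KO_siCtrl or for Gpnmb, Ctsf and Ctsk. Gpnmb reaches 3.27 in that panel, and Ctsh -3.17 in KO_siCtrl minus WT_siCtrl.

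The pathway was also read through lysosomal genes outside the 36, and these lists did not share a direction in KO_siCtrl against WT_siCtrl. Of 29 tested other membrane proteins, 10 were higher and 7 lower in KO_siCtrl (58.6% called, median 0.03). Of 17 other pump subunits, 4 were higher and 3 lower (41.2% called, median 0.13). Among 31 other hydrolases and activators, 5 were higher and 12 lower in KO_siCtrl than in WT_siCtrl (54.8% called against 54.3% of all tested genes, median -0.31 against 0.04), led by the dipeptidyl peptidase Ctsc at 0.936 ± 0.412 FPKM in KO_siCtrl against 5.86 ± 0.415 in WT_siCtrl. The outside lists keep genes that passed the filter through WT_siCtrl alone, whose direction in this comparison was fixed. Arsg, among the 12 lower, was such a gene (0.766 FPKM in KO_siCtrl against 2.51 in WT_siCtrl). Rragb, in the MiT/TFE list below, was another (0.0443 against 5.99). In KO_siNr6a1 against KO_siCtrl, where 29.4% of all tested genes were called (13.2% higher and 16.3% lower), 8 of the 31 were higher and 2 lower (32.3% called), led by Sumf1, the enzyme that activates lysosomal sulfatases (37.9 ± 1.43 against 13.3 ± 1.71 FPKM, log2 fold change 1.45, adjusted p = 4.26e-05). In KO_let-7g, Sumf1 averaged 36.9 ± 1.43 FPKM. Of 29 tested other membrane proteins, 7 were higher and 4 lower in KO_siNr6a1 than in KO_siCtrl (37.9% called). Of 17 other pump subunits 2 were higher and 3 lower (29.4% called). Atp6v0e of the membrane sector was among the higher (184 ± 29.6 against 65.1 ± 2.03 FPKM, 1.47, adjusted p = 3.49e-05). Atp6v1g2, at a low level, was among the lower (0.66 against 1.75 FPKM, -0.72, adjusted p = 0.0021). The pump subunit Atp6v1c2 averaged 31.1 ± 4.64 FPKM in KO_siCtrl and 0.985 FPKM in WT_siCtrl (4.06, adjusted p = 1.26e-07). Of 16 tested MiT/TFE factors and their regulators, 6 were higher and 1 lower in KO_siNr6a1 than in KO_siCtrl (43.8% called), with the Rag GTPases Rragc (0.74, adjusted p = 0.000126) and Rraga (0.46, adjusted p = 0.00209) beside Tfe3. These GTPases tether the kinase mTORC1 and the MiT/TFE factors to the lysosome.

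No source used here states whether counting was strand-specific, so exons shared with another gene can carry its reads. At least 10% of the annotated exonic bases overlapped another gene for 6 members, namely Ctsa, Ctsb, Ctsd, Ctsl, Hexa and Sgsh. The overlap was largest for Ctsd (34.4%, with Gm49369) and Ctsl (26.8%, with the antisense gene Gm47123). Gm49369 lies on the same strand as Ctsd, so strand-specific counting would not separate their reads. The values of these 6 are uncertain to that extent.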

How the data were processed

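The authors deposited 1 table of FPKM values for 12 libraries. TopHat 1.2.0, Cufflinks 1.0.3 and the build mm9 are named in the submitters' processing notes; settings, annotation and strand use are not given in the sources used here. The 36 members, the gene lists and the tests were chosen with earlier results of these data known. Groups and replicate numbers came from the sample titles. The 11801 genes that reached 1 FPKM in 3 or more libraries were tested. The test was the moderated two-sided one of limma 3.58.1 (R 4.3.3) on log2(FPKM + 1), with a mean-variance trend, all 12 libraries in a single fit of group means (8 residual degrees of freedom) and Benjamini-Hochberg adjustment over all tested genes of a comparison. The fit was tested on simulated data. Counts of members cover 32, without Gpnmb (chosen on its values), Ctss (below the filter) and Ctsf and Ctsk (past the filter through WT_siCtrl alone). This narrowing was made after the values were seen, and the outside lists were not narrowed in this way.

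Relative depth came from the steps between low FPKM values, which are worth 1 read, and the pairs of libraries differed from it by at most 0.00049%. No 2 columns were identical, and the highest correlation within a group was 0.979. Libraries with the same replicate number deviated from their group means together (correlation of 0.127 to 0.465 in 12 pairs, all above 0.1), so the replicate numbers look like pairs. This rests on the values, as no label says so. The reported fit has no block, so its p-values leave this pairing out. Another fit took the number as a fixed block, and the choice changed calls. For KO_siNr6a1 against KO_siCtrl, the block gave 9 higher members in place of 5.

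Named genes were Gpnmb and Mitf, up to 8 called members in each direction per comparison by size, and up to 3 called genes per outside list by smallest adjusted p. Outside symbols were matched through RefSeq synonyms where the table uses older names. Promoters and let-7g came from RefSeq (GRCm38.p6) and 3′ UTRs from GENCODE M21, both on another build than the table, which gives no coordinates. The alternatives tried were a pseudocount of 0.1, no filter, a mean FPKM of at least 5, 3 scalings (quantile, upper quartile, median of ratios), no trend, library weights, the block, a fit of only the 2 groups compared, and leaving out each library.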

Additional observations from a re-analysis of the deposited data

How the results depend on the processing

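Across 22 settings, 16 per comparison, 55 results for single members gave 875 repeats. Of these, 817 kept their side of the threshold, 58 lost it, 0 gained it and 0 changed sign. In every setting run, 42 results kept it. These results were the members past the threshold in the reported fit, with Mitf in each comparison. Only Mitf in KO_siNr6a1 against KO_siCtrl could therefore gain a call here. Members outside these results did gain calls in some settings, as the larger counts below show. The least stable calls were Ppt1 (lost in 10 of 16) and Atp6ap1 (6) in KO_let-7g against KO_siNr6a1, and Mcoln1 (6) in KO_siNr6a1 against KO_siCtrl. In KO_let-7g against KO_siCtrl, Mcoln1 (7) and Ctsa (6) changed their side of the threshold most often. All values of that contrast in this section are a description. With the replicate block the count of members higher in KO_siNr6a1 than in KO_siCtrl was 9 in place of 5, and the other counts stayed within 1.5 times. That count was 10 with median of ratios scaling and 10 with library weights, and library weights gave 6 lower in place of 3. In KO_let-7g against KO_siNr6a1, library weights gave 10 higher in place of 5 and 11 lower in place of 7, quantile scaling gave 3 higher and 11 lower, and median of ratios scaling 3 and 14. The cause of these moves was not tested. Leaving out 1 library gave 6 to 9 higher and 10 to 10 lower in KO_siCtrl against WT_siCtrl, 5 to 7 and 7 to 8 in KO_let-7g against KO_siCtrl, 4 to 6 and 3 to 3 in KO_siNr6a1 against KO_siCtrl, and 2 to 5 and 6 to 9 in KO_let-7g against KO_siNr6a1. Mitf had no value at a mean FPKM of at least 5, and neither had Ctsh, since the filter removed them.

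FPKM gives no read counts, so no counting error stands behind a value, and low values such as those of Ctsf, Ctsk and Ctss rest on few reads. A difference that was not called is not shown to be absent.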

Other observations

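Autophagy, which delivers its cargo to lysosomes, was read from 25 genes, of which 24 were tested. In KO_let-7g against KO_siNr6a1, 13 were higher and 3 lower (66.7% called), with a median log2 fold change of 0.34 against 0.12 over all genes. Over all tested genes 40.9% were called, 27.6% higher and 13.3% lower. The share of higher genes among all those called was 67.6% as deposited, 51.9% with quantile scaling and 45.1% with median of ratios scaling. Neither this list nor the other outside lists were followed through the alternative settings. The kinase gene Ulk2 averaged 9.62 ± 0.47 FPKM in KO_let-7g and 4.27 ± 0.192 in KO_siNr6a1 (SD, n = 3 each, log2 fold change 1.01, adjusted p = 2.12e-05), and Atg12, a conjugating protein of the growing autophagosome, averaged 35.4 and 21.6 FPKM in these groups (0.69, adjusted p = 4.6e-05). Atg9a, the lipid scramblase of that membrane, was lower at 16.9 against 29.7 FPKM (-0.78, adjusted p = 0.00036). In KO_siNr6a1 against KO_siCtrl, 2 of the 24 were higher and 7 lower (37.5% called). Over all tested genes 29.4% were called there, 13.2% higher and 16.3% lower. The lower ones included Becn1 (51.4 against 73.1 FPKM, -0.50, adjusted p = 0.000214).

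Of 28 tested genes for sorting to the lysosome, 9 were higher and 7 lower in KO_siCtrl than in WT_siCtrl (57.1% called), where 54.3% of all tested genes were called. The mannose 6-phosphate receptor gene M6pr, which carries new hydrolases from the Golgi, averaged 161 FPKM in KO_siCtrl and 106 in WT_siCtrl (0.59, adjusted p = 4.83e-05). Of the Golgi adaptor genes, Gga3 was lower in KO_let-7g than in KO_siNr6a1 (9.43 against 19.5 FPKM, -0.97, adjusted p = 6.88e-05), and Gga2 averaged 18.7 FPKM in KO_let-7g, 18.8 in KO_siNr6a1 and 10.8 in KO_siCtrl and was called higher in KO_siNr6a1 than in KO_siCtrl (0.75, adjusted p = 0.000167). The whole list had 7 higher and 3 lower genes in KO_let-7g against KO_siNr6a1 (35.7% called, against 40.9% of all tested genes) and 5 higher and 2 lower in KO_siNr6a1 against KO_siCtrl (25.0%, against 29.4%).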
